A study of Mus musculus with 4 samples.

Results

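The genes that write, copy and remove DNA methylation were examined in bulk RNA-seq of neurons derived from mouse embryonic stem (ES) cells. They were chosen by symbol and number 8, Dnmt1, Uhrf1, Dnmt3a, Dnmt3b, Dnmt3l, Tet1, Tet2 and Tet3, of the 34968 symbols shared by all libraries. To ask how St18 alters neurons of the medial ganglionic eminence (MGE), the study compared an N/D line, given Nkx2-1 and Dlx2, with an N/D/S line, given Nkx2-1, Dlx2 and V5-tagged St18. Both lines came from the same Dlx6a-Cre; Ai9 parental ES line, labelled C57/BL6, and were differentiated for 12 days as embryoid bodies, first with XAV-939, a Wnt pathway inhibitor, and afterwards with SAG, a Smoothened agonist. In both, a Nestin promoter drives Nkx2-1 and a tetracycline transactivator, which in turn drives Dlx2 with or without St18. The ES colonies were selected as drug-resistant clones, so a difference between the lines could also be one between clones. Cells were sorted for tdTomato, which marks cells that have expressed Cre from Dlx6a. Each line gave 2 libraries, and no label says whether these came from separate cultures, so the spread between them may be technical.

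In mammals, DNA methylation falls mostly on cytosines followed by guanine (CpGs). Dnmt3a and Dnmt3b place it on unmethylated DNA, with Dnmt3l as a catalytically inactive partner. At replication, Uhrf1 binds hemimethylated CpGs and brings in Dnmt1, which copies the mark to the new strand. Tet1, Tet2 and Tet3 oxidise methylated cytosine, after which base excision repair or further replication can remove it. Dnmt3b, Dnmt3l, Tet1 and Tet2 are known for high levels in ES cells, Uhrf1 for high levels in dividing cells, and Dnmt3a and Tet3 for activity in developing neurons. No methylation was measured here, only transcripts.

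On GRCm38, with the gene models of GENCODE M21, Uhrf1 at chr17:56303321-56323486, Dnmt3a at chr12:3806007-3914443, Dnmt3b at chr2:153649450-153687730 and Dnmt3l at chr10:78041947-78063622 lie on the plus strand. On the minus strand lie Dnmt1 at chr9:20907209-20959888, Tet1 at chr10:62804570-62908996, Tet2 at chr3:133463679-133545139 and Tet3 at chr6:83362373-83459084. Each has several annotated transcripts, from 5 for Tet3 to 18 for Dnmt3a, and the files give a single value per gene symbol.

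Abundances are given as TPM, a relative transcript abundance, which are scaled to transcript length and library total and can be compared between genes. How deeply a library was sequenced cannot be read from TPM, and so detection limits are not given. The library labelled N/D replicate 1 stood apart. It had 13485 genes above 0, against 17197 to 20855 in the others. Among 6139 genes at 10 TPM or more in each other library, 613 (9.99%) were listed at 0 there, and in the other libraries the same count was 0 to 2 genes. St18 did not separate the lines, with 44.4 and 15.9 TPM in N/D/S, against 28.5 and 26.6 TPM in N/D, in replicate order, so every direction below rests on the labels. All 12 neuronal markers were above 1 TPM in every library. Tubb3 (1509 to 2774 TPM) and Stmn2 (606 to 1631 TPM) were high throughout, while Dlx1 had 519.9 and 97.95 TPM in N/D/S, against 181.9 and 447.2 TPM in N/D, and Dcx, named after its values were seen, was lowest in N/D/S replicate 2, at 17.9 TPM against 69.0 to 122.5 TPM elsewhere. Files of the same replicate number list the same symbols and those of different numbers do not, so differences within each replicate number are given beside the pooled ones.

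The neurons of both lines had mainly Dnmt3a and Dnmt1 among the methyltransferases, all 3 Tet genes, and little Dnmt3b or Dnmt3l. By mean TPM over the 4 libraries the order was Dnmt3a (60.6), Dnmt1 (32.5), Tet3 (23.7), Tet2 (18.3), Tet1 (10.2), Uhrf1 (8.77), Dnmt3b (1.94) and Dnmt3l (0.914). Tet3 was above Tet2 in 4 of 4 libraries, by 0.31 ± 0.18 (SD, n = 4) on the log2(TPM + 1) scale. The other neighbours did not keep their order in every library or differed by less than the spread. Dnmt3a exceeded Dnmt1 in 3 of 4 libraries (0.70 ± 0.77 in log2, SD, n = 4), Dnmt1 exceeded Tet3 in 3 of 4 (0.61 ± 0.86), and Tet1 and Uhrf1 differed by −0.07 ± 1.04 on the same scale. Dnmt3b exceeded Dnmt3l in 3 libraries and both were listed at 0 in the fourth.

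**Figure D1:**
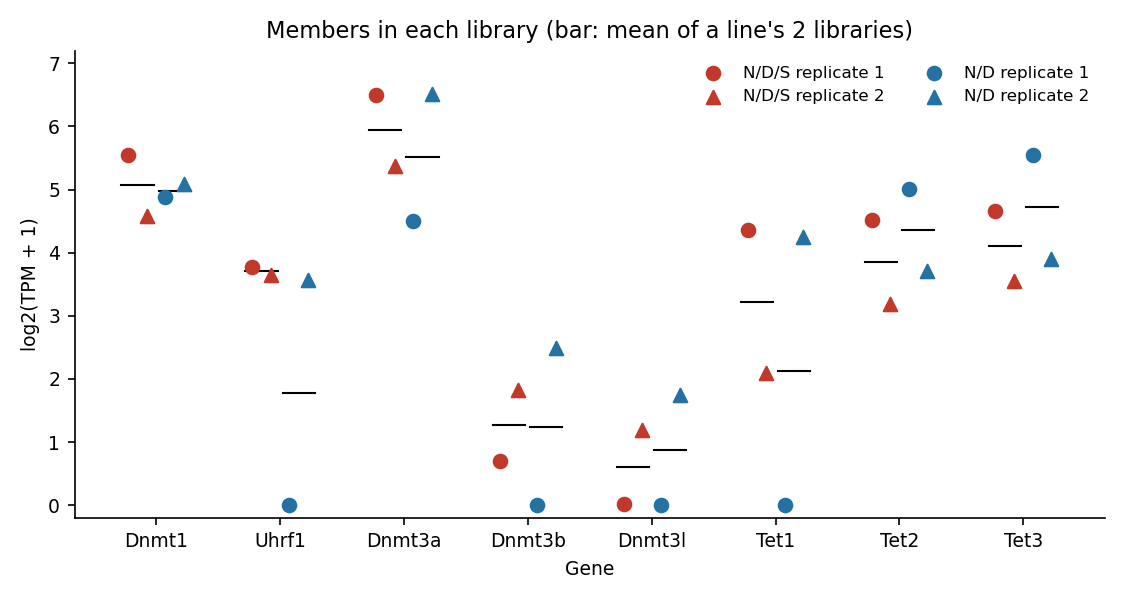
Level of each gene, as log2(TPM + 1), in each library: N/D/S in red and N/D in blue, replicate 1 as circles and replicate 2 as triangles, with a bar at the mean of a line. Uhrf1, Tet1, Dnmt3b and Dnmt3l lie at or near 0 in N/D replicate 1, while Dnmt1, Dnmt3a, Tet2 and Tet3 have 21.7 to 45.7 TPM there.

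No difference between the lines passed the test for any of the 8 genes. After Benjamini-Hochberg adjustment over the 12975 genes fitted with limma, 0 of the 8 passed the threshold of 0.05 (each adjusted p = 1), and 0 had an unadjusted p under 0.05. Among all genes tested the shares were 0% at the adjusted threshold and 0.0617% (8 genes) at the unadjusted threshold, the latter well under the share that a p threshold of 0.05 lets pass by chance. Taken as N/D/S minus N/D on log2(TPM + 1), the median log2 fold change was 0.05 over the 8 genes and 0.26 over all genes tested. All 8 passed the filter on low values, which kept genes with 2 or more libraries at 1 TPM or above. With 2 libraries a line, the smallest two-sided p of an exact permutation test is 0.333, so that test cannot reach 0.05.

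Uhrf1 was the only member whose libraries did not overlap between the lines. It had 12.7 and 11.6 TPM in N/D/S, 10.8 TPM in N/D replicate 2, and was listed at 0 in N/D replicate 1. The 3 libraries in which it was above 0 were thus close together, and the gap came from the library labelled N/D replicate 1. The log2 fold change was 1.93 (standard error 1.35, 95% interval −1.26 to 5.11, adjusted p = 1 from limma), a value that depends on the pseudocount because a library is at 0, and it was 0.15 without N/D replicate 1. Non-overlap in either direction was found for 1 of 8 members and for 16.9% of all genes tested, 8.69% with N/D/S higher and 8.23% with N/D/S lower.

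Dnmt1, the maintenance methyltransferase, had the least spread between libraries of a line, with a residual SD of 0.49 in log2 against 0.93 to 2.41 for the other members. Its TPM were 45.7 and 23.1 in N/D/S and 28.4 and 33.0 in N/D, in replicate order. The N/D libraries lay between both N/D/S libraries. The log2 fold change was 0.09 (standard error 0.99, 95% interval −2.25 to 2.42), with mean TPM of 34.4 ± 16.0 in N/D/S and 30.6 ± 3.25 in N/D (SD, n = 2 each). Its sign turned when the first library of either line was left out (−0.02 for N/D, −0.39 for N/D/S). Uhrf1 and Dnmt1 act together at replication, yet in N/D replicate 1 Dnmt1 had 28.4 TPM while Uhrf1 was listed at 0. Among 14 genes of dividing cells, the summed level was 366 and 361 TPM in N/D/S, against 226 and 689 TPM in N/D, and in N/D replicate 1 a further 5 of them, Cdk1, Mcm3, Mki67, Rrm2 and Aurkb, were listed at 0. The most abundant, Pcna, Birc5 and Tyms, had 61.0, 35.7 and 62.0 TPM in that library. The part of dividing cells in the levels of Uhrf1 and Dnmt1 was not tested, and in sorted bulk samples fewer cells of a type cannot be told apart from less RNA per cell.

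Dnmt3a was the most abundant of the 8 genes in 3 libraries. It had 89.6 and 40.6 TPM in N/D/S, against 21.7 and 90.6 TPM in N/D, in replicate order. Both lines thus held a library near 90 TPM, and the lines overlapped. Within the N/D line alone, replicate 2 had 4.18 times the level of replicate 1, and within N/D/S replicate 1 had 2.21 times that of replicate 2. The log2 fold change between the lines was 0.43 (standard error 1.14, 95% interval −2.25 to 3.11). Its sign turned to −0.58 without N/D replicate 1 and to −0.13 without N/D/S replicate 1.

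Dnmt3b and its partner Dnmt3l were low throughout and highest in the replicate 2 libraries of both lines. Dnmt3b had 0.623 and 2.55 TPM in N/D/S, was listed at 0 in N/D replicate 1 and had 4.59 TPM in N/D replicate 2. Dnmt3l had 0.0101 and 1.27 TPM in N/D/S, was listed at 0 in N/D replicate 1 and had 2.37 TPM in N/D replicate 2. In each line replicate 2 was therefore above replicate 1 for both genes, and the lines overlapped. The log2 fold changes were 0.02 for Dnmt3b (standard error 1.20) and −0.28 for Dnmt3l (standard error 1.11), on log2(TPM + 1), where the pseudocount weighs heavily at such levels. Without N/D replicate 1 they were −1.22 and −1.15. The related germline gene Dnmt3c and the pseudogenes of Dnmt3a and Dnmt3l, with which reads could be shared, were listed at 0 in every library.

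Summed markers of pluripotent cells followed the same split by replicate number, but the split was not particular to them. Summed glial markers had 13.7 and 49.1 TPM in N/D/S, against 5.31 and 122 TPM in N/D, and summed progenitor markers split likewise. Among the pluripotency markers, Klf4 went the other way in N/D/S, at 0.367 and 0.229 TPM. The summed level of the 10 pluripotency markers was 4.31 TPM in N/D/S replicate 1 and 333 TPM in N/D/S replicate 2. In N/D it was 0.253 and 199 TPM, with 8 of the 10 listed at 0 in N/D replicate 1. Dppa5a, a marker of ES cells, had 3.03 and 265.5 TPM in N/D/S, against 0 and 164 TPM in N/D. Pou5f1, which defines pluripotent cells, had 0.0881 and 19.5 TPM in N/D/S, against 0 and 7.55 TPM in N/D, and Utf1 had 0.16, 36.6, 0 and 9.31 TPM in the same order. The larger sum of N/D/S replicate 2 came mainly from Dppa5a, while 6 of the 10 markers were higher in N/D replicate 2, as were Dnmt3b and Dnmt3l. Of all genes tested, 74.7% were likewise lower in N/D/S replicate 2 than in N/D replicate 2. Cells had been sorted for tdTomato, and the part of such cells in the levels of Dnmt3b and Dnmt3l was not tested.

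The methyltransferases kept a similar makeup in 3 libraries. Dnmt3a made up 65.9% and 61.3% of the summed TPM of Dnmt1, Dnmt3a and Dnmt3b in N/D/S and 43.3% and 70.7% in N/D, in replicate order. Dnmt3b held at most 3.85% of that sum in any library. Shares within a library do not depend on how libraries are scaled, and here too N/D replicate 1 was apart from the rest, with Dnmt1 ahead of Dnmt3a.

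The Tet genes split, with Tet2 and Tet3 following each other and Tet1 varying on its own. Tet3 had 24.3 and 10.8 TPM in N/D/S, against 45.7 and 14.0 TPM in N/D, in replicate order. Tet2 had 22.0 and 8.14 TPM in N/D/S, against 31.1 and 12.0 TPM in N/D. For both genes the N/D/S library was the lower within each replicate number, but N/D/S replicate 1 lay above N/D replicate 2, so the lines overlapped. Differences of log2(TPM + 1) within replicates 1 and 2 were −0.89 and −0.35 for Tet3, and −0.48 and −0.51 for Tet2. The fitted log2 fold changes were −0.62 for Tet3 (standard error 1.09, 95% interval −3.19 to 1.96) and −0.50 for Tet2 (standard error 1.08, 95% interval −3.04 to 2.05). Without N/D replicate 1 these became 0.20 and 0.15, and Tet2 was at 0.17 without N/D/S replicate 2. A lower level in N/D/S at each replicate number was found for 2 of the 8 members and for 17.9% of all genes tested.

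Tet1, which carries its own CpG-binding domain and, like Tet2, is known from ES cells, had the largest residual SD of the members, at 2.41 in log2. It had 19.6 and 3.25 TPM in N/D/S, against 0.00115 and 18.1 TPM in N/D, in replicate order. A high and a low library thus stood in each line. The first N/D/S library had 6.03 times the Tet1 of the second. N/D replicate 2 had 5.55 times the Tet1 of N/D/S replicate 2. The log2 fold change was 1.10 (standard error 1.60, 95% interval −2.69 to 4.88) and turned to −1.03 without N/D replicate 1 and to −0.04 without N/D/S replicate 1. As a share of summed Tet TPM, Tet1 made up 29.7% and 14.7% in N/D/S and 0.0015% and 41.0% in N/D. Of the replicate 2 libraries, that of N/D had more Tet1, as it had of 6 of the 10 pluripotency markers and of 74.7% of all genes tested. Tet1 did not follow the summed markers across N/D/S. It was highest in N/D/S replicate 1, where they summed to 4.31 TPM, and low in N/D/S replicate 2, where they summed to 333 TPM. The part of pluripotent cells in the level of Tet1 was not tested.

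**Figure D2:**
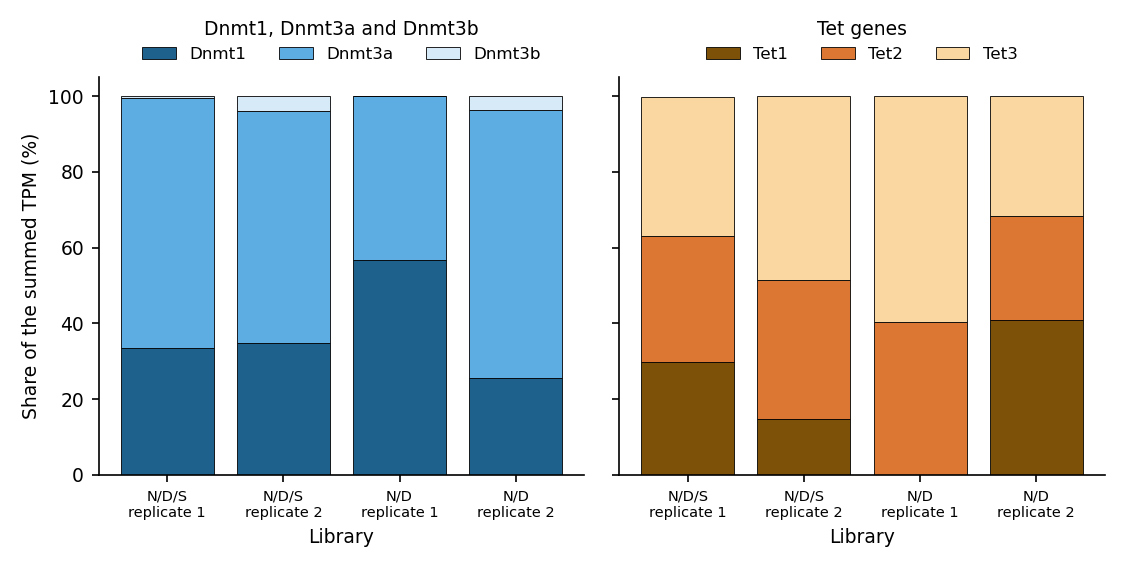
Share, in percent, of each gene in the summed TPM of Dnmt1, Dnmt3a and Dnmt3b (left) and of the Tet genes (right), for each library. Dnmt3a leads in all libraries but N/D replicate 1, and the share of Tet1 runs from 0.0015% in N/D replicate 1 to 41.0% in N/D replicate 2.

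Methyltransferase transcripts outweighed those of the Tet genes in 3 libraries. The ratio of summed Dnmt1, Dnmt3a and Dnmt3b to summed Tet1, Tet2 and Tet3 was 2.06 and 2.99 in N/D/S and 0.651 and 2.91 in N/D, in replicate order. Only N/D replicate 1 had more Tet than methyltransferase TPM. Dnmt1, Dnmt3a, Tet2 and Tet3 were above 20 TPM in that library, so not every member was low there. Of the 6 members with at least 1 TPM in each other library, 2 (Uhrf1 and Tet1) were under 1 TPM there, beside 36.6% of 11051 such genes overall.

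Most members changed sign between replicate numbers. The N/D/S library was above the N/D library within replicate 1 for 6 of 8 members (72.5% of all genes tested) and below it within replicate 2 for 7 of 8 (74.7%). Opposite signs were seen for 5 of 8 members, against 65.6% of all genes tested. A higher level in N/D/S at each replicate number was seen for Uhrf1 alone (15.9% of all genes tested), at 3.77 in replicate 1, taken against a library at 0, and 0.09 in replicate 2. These shares were close to those of all genes.

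**Figure D3:**
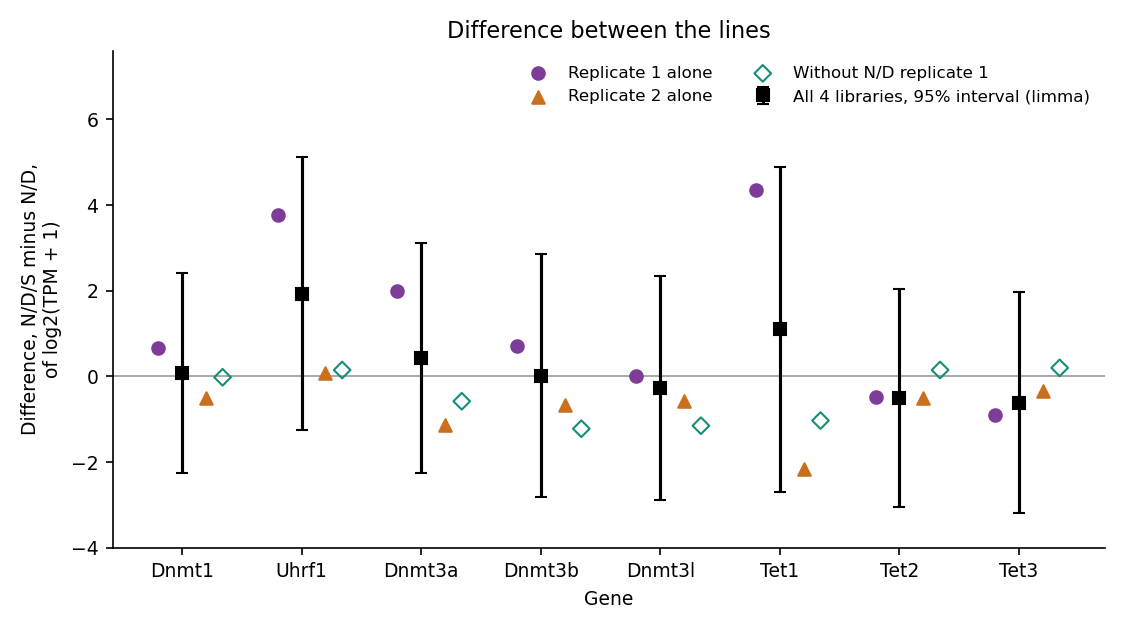
Difference of log2(TPM + 1), N/D/S minus N/D, for each gene: black squares are the limma estimates from all 4 libraries with their 95% intervals, circles and triangles are replicates 1 and 2 alone, and open diamonds leave out N/D replicate 1. All 8 intervals span 0, and only Uhrf1, Tet2 and Tet3 have the same sign in both replicates, of which Tet2 and Tet3 change sign without N/D replicate 1.

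The library left out decided which members were called. With N/D replicate 2 left out, both N/D/S libraries were set against N/D replicate 1 alone, and Uhrf1 (log2 fold change 3.71, adjusted p = 0.00473) and Tet1 (3.22, adjusted p = 0.0158) passed the threshold by limma with Benjamini-Hochberg adjustment, the lone library being assumed to vary like the others. In that comparison 25.0% of the 11619 genes tested passed, 2664 higher and 245 lower in N/D/S. Leaving out any of the other libraries called 0 members.

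The profile of each member over the 4 libraries was set beside those of all genes tested. Likeness was measured as the mean absolute difference of log2(TPM + 1) after each gene's own mean was removed, so a lower value means more alike. Among the members, Tet2 and Tet3 were most alike, at 0.14, followed by Dnmt3b and Dnmt3l, at 0.26. Dnmt1 and Uhrf1 differed by 1.3, and Tet1 and Tet3 by 1.9. Other genes were closer still, with 57 nearer to Tet2 than Tet3 was, 48 nearer to Tet3 than Tet2 was, 83 nearer to Dnmt3b than Dnmt3l was and 93 nearer to Dnmt3l than Dnmt3b was. In all, 182 genes lay within 0.2 of Tet2, 139 of Tet3, 533 of Dnmt1, 381 of Dnmt3a, 159 of Uhrf1, 72 of Tet1, 41 of Dnmt3l and 36 of Dnmt3b. The closest to Tet2 were Sema3f (0.013) and Snx11 (0.042), and to Tet3 Galnt9 (0.035) and Etaa1 (0.037). Those closest to Dnmt3a were Rpn1 and Rb1cc1 (0.035 each), to Dnmt1 Mapk9 (0.029) and Srr (0.035), to Tet1 Ncoa6 (0.011) and Rcor3 (0.039), and to Uhrf1 Rhpn1 (0.057) and Nprl3 (0.058). For Dnmt3b they were Grm5 (0.037) and 1500009C09Rik (0.061). For Dnmt3l they were Gpr37l1 (0.058) and the pluripotency factor Nanog (0.070), which had 0.123 and 1.96 TPM in N/D/S, against 0.247 and 3.04 TPM in N/D.

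The promoters of the pairs with the most alike profiles, and of Uhrf1, are shown for their CpG content, since CpGs are what these enzymes act on. Sequences are from RefSeq on GRCm38.p6, cover the 250 bases before an annotated start, read 5′ to 3′ on the strand of the gene, and have each CpG in capitals. For Uhrf1, the window that overlaps no exon of GENCODE M21 is shown, and for Dnmt3l the first of the windows that overlap none. Which start the neurons use cannot be read from a single TPM per gene.
Tet2, chr3:133544391-133544640, minus strand: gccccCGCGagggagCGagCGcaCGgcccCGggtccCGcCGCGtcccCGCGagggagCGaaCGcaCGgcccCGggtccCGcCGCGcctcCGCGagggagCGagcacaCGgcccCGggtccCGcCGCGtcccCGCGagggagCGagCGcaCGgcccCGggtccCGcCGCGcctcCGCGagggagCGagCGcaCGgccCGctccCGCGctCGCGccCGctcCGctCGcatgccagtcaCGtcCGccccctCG
Tet3, chr6:83441679-83441928, minus strand: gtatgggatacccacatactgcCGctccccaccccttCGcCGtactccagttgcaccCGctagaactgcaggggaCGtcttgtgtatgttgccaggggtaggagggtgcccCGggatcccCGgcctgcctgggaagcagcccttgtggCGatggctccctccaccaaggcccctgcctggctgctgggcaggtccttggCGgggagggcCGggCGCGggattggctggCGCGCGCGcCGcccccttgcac
Dnmt3b, chr2:153649199-153649448, plus strand: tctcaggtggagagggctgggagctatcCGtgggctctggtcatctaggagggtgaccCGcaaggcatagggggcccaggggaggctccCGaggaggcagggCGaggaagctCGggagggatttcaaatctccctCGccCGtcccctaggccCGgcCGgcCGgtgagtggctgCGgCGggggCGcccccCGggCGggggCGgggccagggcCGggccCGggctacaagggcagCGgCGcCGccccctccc
Dnmt3l, chr10:78049592-78049841, plus strand: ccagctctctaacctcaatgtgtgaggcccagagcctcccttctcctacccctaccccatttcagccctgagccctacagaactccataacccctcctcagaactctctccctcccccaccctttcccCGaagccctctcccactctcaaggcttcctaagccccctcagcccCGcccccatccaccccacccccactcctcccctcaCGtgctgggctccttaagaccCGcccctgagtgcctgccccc
Uhrf1, chr17:56304063-56304312, plus strand: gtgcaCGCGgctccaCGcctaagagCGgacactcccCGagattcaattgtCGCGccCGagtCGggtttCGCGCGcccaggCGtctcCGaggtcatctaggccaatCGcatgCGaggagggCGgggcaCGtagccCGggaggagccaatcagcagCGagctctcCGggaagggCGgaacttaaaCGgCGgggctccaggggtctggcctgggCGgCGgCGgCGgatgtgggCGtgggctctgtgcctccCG

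Those windows held 51 CpGs for Tet2, 17 for Tet3, 21 for Dnmt3b, 4 for Dnmt3l and 30 for Uhrf1, and the median over 32841 RefSeq promoters was 6. The window of Tet2 had more CpGs than 99.9% of promoters and that of Dnmt3l more than 37.8%. The members of each pair thus differed in CpG content. The Tet3 window overlaps exons of the noncoding gene B230319C09Rik by 174 bases, and the others shown overlap no exon. Over the 15 starts of the 8 genes, Dnmt3a had 15 to 40 CpGs, Dnmt1 had 2, 7 and 26, Dnmt3l had 3 to 5, and Tet1 had 15. The letters TTTNGCGC, an E2F motif, were searched on both strands and occurred at 1 start each of Dnmt1 (as GCGCGAAA, beginning 219 bases before the start at the lowest coordinate, in a window of which 166 bases, the match among them, lie in an exon of Dnmt1) and Uhrf1 (as TTTCGCGC, beginning 185 bases before the start shown), and at 1.13% of all promoters. The CCAAT box (CCAAT) was found at 5 and the GC box (GGGCGG) at 11 of the 15 starts, against 33.9% and 32.7% of all promoters.

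**Figure D4:**
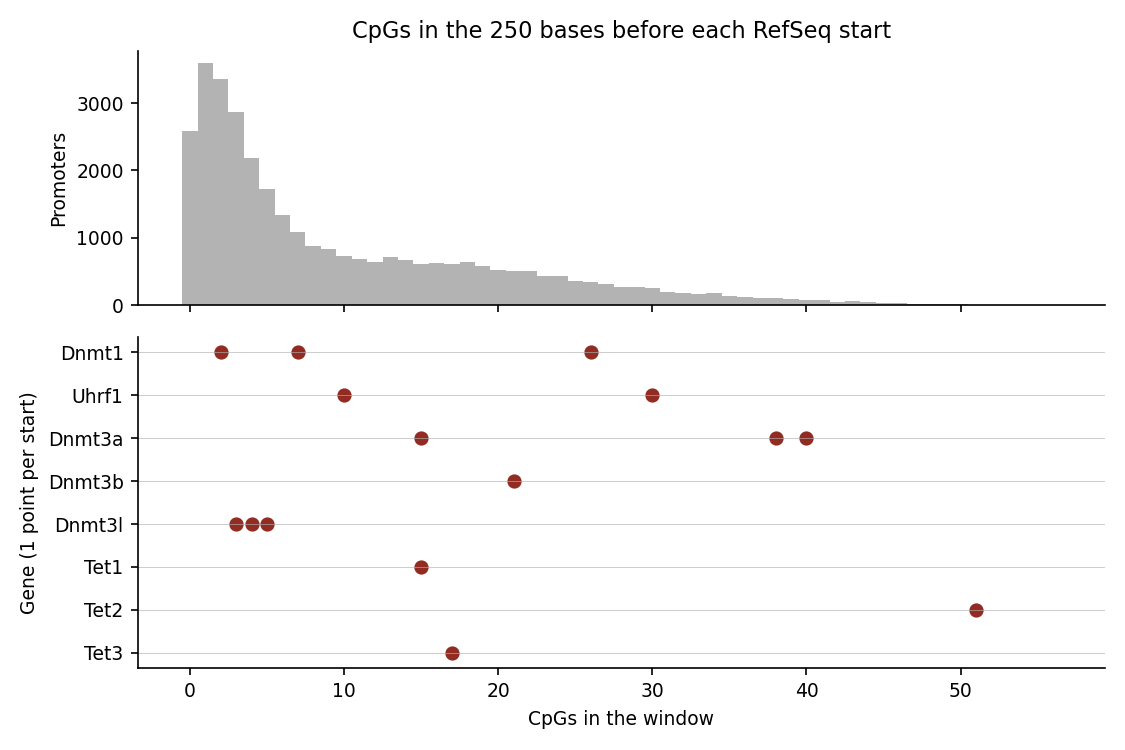
Number of CpGs in the 250 bases before each RefSeq start, as a histogram over 32841 mouse promoters (top) and for each start of the 8 genes (bottom). The start of Tet2 has the most CpGs, 51, and the 3 starts of Dnmt3l have 3 to 5.

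No other gene of the pathway passed the test between the lines. Of 44 genes of the methyl-CpG-binding protein families or that repair oxidised cytosine, partner with the enzymes or supply their cofactors, 41 were tested, of which 0 passed the adjusted threshold by limma and 0 had an unadjusted p under 0.05. The lines did not overlap for 5 of the 41 (12.2%), beside 16.9% of all genes tested. The median log2 fold change was 0.30, beside 0.26 over all genes tested. Of 36 such genes with at least 1 TPM in each other library, 13 (36.1%) were under 1 TPM in N/D replicate 1, beside 36.6% of all such genes.

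Among 11 genes of the methyl-CpG-binding protein families, which include members such as Mbd3, Mbd5 and Mbd6 that are not known to bind methylated CpGs selectively, 10 were tested and 0 passed. Mbd3, a subunit of the NuRD complex, had the highest mean. It had 197 and 220 TPM in N/D/S, against 424 and 234 TPM in N/D, in replicate order, both N/D libraries being the higher (log2 fold change −0.60, standard error 0.98). Mbd2 had 33.9 and 21.6 TPM in N/D/S, against 4.83 and 35.6 TPM in N/D. Uhrf2, a relative of Uhrf1, had 45.3 and 9.54 TPM in N/D/S, against 0.0616 and 33.6 TPM in N/D, so that, like Uhrf1, it was lowest in N/D replicate 1.

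Among 15 base excision and Gadd45 genes, 13 were tested and 0 passed. Polb (260.5 to 372 TPM) and Apex1 (243 to 305 TPM), the repair polymerase and endonuclease, were high and steady in all 4 libraries. Tdg, the glycosylase that removes the products of Tet oxidation, had 164 and 34.9 TPM in N/D/S, against 124 and 116 TPM in N/D. Tdg was thus lowest in N/D/S replicate 2, as were Tet2 and Tet3. Smug1 (log2 fold change 2.46, standard error 1.47) had both N/D/S libraries above both of N/D, and Lig1 (−0.37, standard error 0.96) both below, and they are named after their values were seen. Smug1 had 30.8 and 19.0 TPM in N/D/S, against 0.0963 and 18.1 TPM in N/D. Its gap thus came mainly from N/D replicate 1, and the log2 difference within replicate 2 was 0.07.

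All 10 partners were tested and 0 passed. Trim28, a corepressor that protects methylation at imprinted genes, had 173 and 188 TPM in N/D/S, against 108 and 199 TPM in N/D. Ogt, a glycosyltransferase that binds Tet proteins, had 82.3 and 18.1 TPM in N/D/S, against 60.5 and 45.0 TPM in N/D. Cxxc5 had 104 and 27.1 TPM in N/D/S, against 66.6 and 52.9 TPM in N/D. For Ogt and Cxxc5, N/D/S held both the highest and the lowest library. Cxxc4, named after its values were seen, was the single partner whose lines did not overlap, with 14.8 and 7.96 TPM in N/D/S, against 22.4 and 25.4 TPM in N/D (log2 fold change −1.06, standard error 0.98).

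Genes that supply the methyl donor and the Tet cosubstrate were all tested (8 of 8), and 0 passed. Idh1, which makes 2-oxoglutarate in the cytosol, had 582 and 173 TPM in N/D/S, against 647 and 548 TPM in N/D. Its mitochondrial counterpart Idh2 ranged from 182 to 267 TPM. Mat2a, which makes S-adenosylmethionine, had 236 and 105.5 TPM in N/D/S, against 60.9 and 259 TPM in N/D, high and low in the same libraries as Dnmt3a. Mtr, named after its values were seen, was the single gene of this list with both N/D/S libraries above both of N/D, at 1.72 and 2.38 TPM against 0 and 1.11 TPM.

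**Figure D5:**
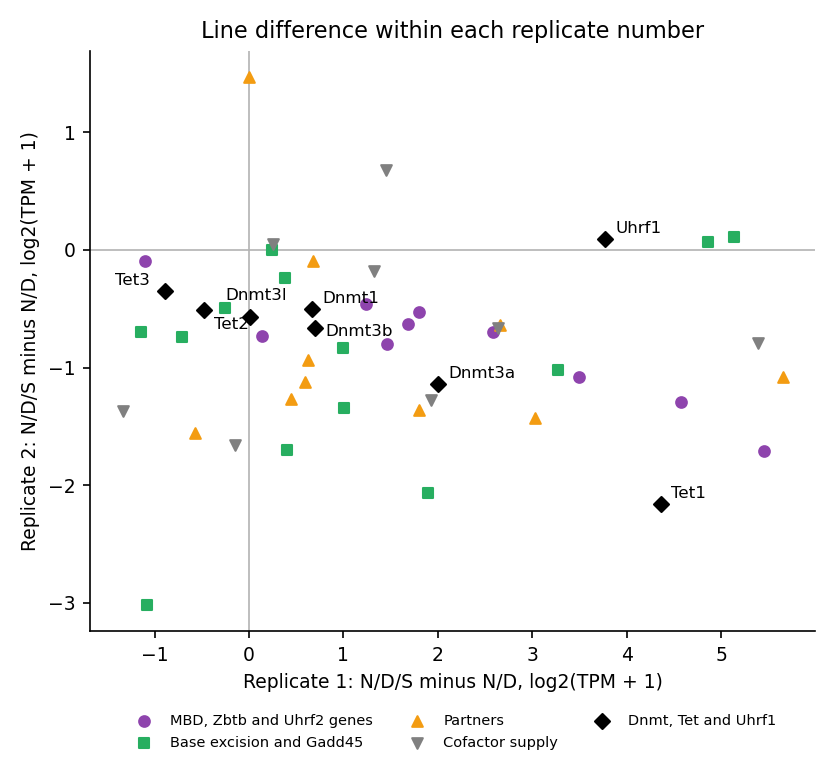
Difference of log2(TPM + 1), N/D/S minus N/D, within replicate 1 (horizontal) and replicate 2 (vertical), for each tested gene of the pathway, with the 8 members in black. Most points lie in the lower right, above 0 in replicate 1 and below 0 in replicate 2, and Tet2 and Tet3 lie below 0 in both.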

How the data were processed

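Bulk RNA-seq of tdTomato+ neurons sorted on day 12 was analysed from 2 libraries of each line. As deposited, these hold a single TPM value per gene symbol and library, for which kallisto 0.44.0 had pseudoaligned poly-A selected, paired-end reads. The submitters' notes name GRCm38, and how transcripts were combined into genes is not given in the sources used here. Depth is unknown, so precision rests on the libraries alone. No scaling between libraries is described, and a library that lists many expressed genes at 0 shifts every comparison it enters.

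The files were joined on gene symbol, leaving out symbols turned into dates. Groups came from the sample labels. Differences were fitted with limma 3.58.1 in R 4.3.3 on log2(TPM + 1), without covariates, for the 12975 genes that reached 1 TPM in 2 or more libraries. P-values were adjusted by Benjamini-Hochberg and called at 0.05. They measure only the spread between these libraries. The test was checked on simulated data, where it recovered large changes at a small spread between libraries but not at the spread of these libraries, so a lack of calls does not show a lack of change. Sleuth, which the submitters' notes name, was not run here. Python 3.11.15 (pandas 2.3.3, numpy 2.4.6) handled tables and matplotlib 3.10.9 drew figures. Positions came from GENCODE M21 and promoter sequences from RefSeq, in which all 8 genes were matched.

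The 8 genes and the lists were chosen with earlier results of these data known. From each list, the 3 genes with the highest mean TPM are named, and for each of the 8 the 2 genes of most alike profile. Alternatives were pseudocounts of 0.1 and 0.5, no filter, at least 1 TPM in every library, 4 scalings, a variance trend, replicate number as a block, and each library left out in turn.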

Additional observations from a re-analysis of the deposited data

How the results depend on the processing

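In all, 160 values were recomputed over 14 alternatives: 137 kept the direction and call of a gene, a count within 1.5 times, or the members' median within 0.943 (1 SD between libraries of a line), 12 gene values changed direction, 2 passed the threshold and 9 counts moved. The members' median of 0.05 turned to −0.20 with at least 1 TPM required everywhere and, with the first library of a line left out, to −0.30 (N/D) or −0.08 (N/D/S). Apart from fewer libraries or genes, the cause was not tested. No gene passed the adjusted threshold except with the variance trend (6, none a member) and without N/D replicate 2. With 1 library left out, the range was 0 to 2909 for genes past the threshold, 0 to 2 for members past it, −0.30 to 0.82 for the members' median log2 fold change (−0.29 to 0.71 over all genes tested) and 3 to 5 for members not overlapping (45.3% to 80.5% of all genes tested), where a lone library separates more easily. That last number was 0 of 4 members once each library had to reach 1 TPM, and 2 with quantile normalization. With 1 library left out, log2 fold changes ran from −0.39 to 0.57 for Dnmt1, −0.58 to 1.44 for Dnmt3a, −1.22 to 0.59 for Dnmt3b, −1.15 to 0.31 for Dnmt3l, −1.03 to 3.22 for Tet1, −1.16 to 0.17 for Tet2, −1.44 to 0.20 for Tet3 and 0.15 to 3.71 for Uhrf1. Dnmt3b and Dnmt3l were not tested without N/D replicate 2 or N/D/S replicate 2. With quantile normalization Dnmt3l was at 0.01. A pseudocount of 0.1 gave 3.54 for Uhrf1, 2.58 for Tet1 and 1.01 for Dnmt3b. The median of all genes was 0.26, became 0.11 by quantile normalization and 0.49 when scaled to the upper quartile. Same-numbered libraries deviated together with a correlation of 0.0197 across genes and no label ties them, so they were not treated as pairs, although some markers split by number in both lines. With replicate number as a block, 0 genes and 0 members passed, 9 genes had an unadjusted p under 0.05, 1 member did not overlap, and the members' median stayed at 0.05. Depth is unknown, so values at 0 cannot be read as absence.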

Other observations

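Germline genes that are known to be silenced by DNA methylation in somatic cells had low values. Of 11 such genes, 0 reached the filter for testing, and the only value above 1 TPM was Mael, at 1.42 TPM in N/D/S replicate 2. In N/D replicate 1, 10 of the 11 were listed at 0, which cannot be read as absence in that library. Their summed level was 1.25 and 1.84 TPM in N/D/S, against 0.0115 and 1.61 TPM in N/D, in replicate order. Mael, Sycp3 and Dazl had the highest means, at 0.486, 0.195 and 0.148 TPM. Dppa3, a germline and ES cell factor that limits Uhrf1 and is named after its values were seen, had 0 and 14.4 TPM in N/D/S, against 0 and 4.57 TPM in N/D, above 0 in the replicate 2 libraries alone.

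Other markers were summed as well. Of 12 neuronal markers the sum was 5720 and 3663 TPM in N/D/S, against 4580 and 3870 TPM in N/D. Among 9 progenitor markers it was 523 and 721 TPM in N/D/S, against 489 and 1201 TPM in N/D, with Fabp7, Vim and Sox2 the most abundant. Among 7 glial markers it was 13.7 and 49.1 TPM in N/D/S, against 5.31 and 122 TPM in N/D, led by Mbp, Aldh1l1 and S100b. Among 7 markers of connective, vascular and immune cells it was 8.85 and 25.0 TPM in N/D/S, against 38.8 and 28.6 TPM in N/D, led by Pecam1, Col3a1 and Col1a1. In N/D replicate 1 nearly all of that sum was Pecam1, at 38.75 TPM, while Col3a1 was listed at 0 and Col1a1 had 0.0354 TPM.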
